A study of Mus musculus with 4 samples.

Results

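The cells described here were neurons of the mouse dorsal root ganglion (DRG) that held the heavy neurofilament gene Nefh together with Ntrk2, the gene of the BDNF receptor TrkB, and little Pvalb or Calb1. Membership was set per 10000 unique molecular identifiers (UMIs) of a cell, a scale called CP10K: Nefh of at least 5, Ntrk2 of at least 1, and Pvalb and Calb1 each below 2. A cell also needed at least 1500 genes, at least 5000 UMIs and at most 10% mitochondrial UMIs. The rule chose 345 members among 17836 cells that met those limits. Members from injured animals were split at a Sprr1a value of 1.72 CP10K into 28 Sprr1a+ and 77 Sprr1a- cells. All of this rests on measured values, so the levels of these 5 genes are given as description and carry no test.

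DRG neurons were sequenced cell by cell (10x Genomics 3′ chemistry) 7 days after chronic constriction injury (CCI) of both sciatic nerves, in which loose ligatures are tied around the nerve, or after sham surgery. Every animal was a heterozygous PirtEGFPf mouse on C57BL/6, aged 7 to 8 weeks. The allele yields farnesylated EGFP instead of Pirt wherever Pirt is normally switched on, so sham and CCI animals alike kept a single working Pirt copy. Cells were sorted for GFP, and the study's paper, citing earlier work, describes neurons that lack Pirt as mostly large and NF200-positive, so neurons like the members were sampled only as far as they carried the reporter. Each of 4 libraries pooled 20 lumbar L4 and L5 ganglia from 5 mice, and they are named Male-Sham and Female-Sham, then Male-CCI and Female-CCI. The male library of each surgery served as replicate 1 and the female as replicate 2, giving n = 2 per surgery. Pups of a litter, male or female, had the same operation, and litter and surgery cannot be told apart. The libraries held 199428489, 237069156, 196661026 and 195684124 UMIs in that order, which is the order of every set of 4 values that follows.

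TrkB is a receptor tyrosine kinase for BDNF and neurotrophin-4 that signals through the Ras-MAP kinase, PI3 kinase and phospholipase C-gamma routes. In the DRG it is best known from A-delta low-threshold mechanoreceptors, thinly myelinated neurons whose lanceolate endings wrap hair follicles and respond to light stroking of hair. Neurofilament-rich DRG neurons also include A-beta touch receptors and, marked by Pvalb, the proprioceptors of muscle. After nerve injury DRG neurons take on a regeneration programme that includes Atf3, Jun, Sox11 and Sprr1a, the last a small proline-rich protein tied to axon outgrowth.

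The members numbered 101, 139, 66 and 39, or 2.59%, 2.16%, 1.97% and 0.941% of cells within the quality limits. Exact 95% (Clopper-Pearson) intervals, which cover counting error only, were 2.11% to 3.13%, 1.82% to 2.54%, 1.53% to 2.50% and 0.670% to 1.28%. Female-CCI thus stood below the other libraries, and the interval of Male-CCI overlapped those of both sham libraries. Members with Ntrk2 of at least 4 CP10K, a limit chosen after seeing the data, were 1.84%, 1.54%, 0.927% and 0.458% of cells. There the Male-CCI interval (0.631% to 1.31%) lay below that of Male-Sham (1.44% to 2.32%) and overlapped that of Female-Sham (1.25% to 1.87%). Members were deeply covered, with median UMIs of 97093, 63221, 87982 and 53068 and median genes of 8354, 7583, 7926 and 7297. Median mitochondrial shares were 5.99%, 6.33%, 7.19% and 7.71%, higher in both CCI libraries and close to the 10% limit. With a limit of 20%, chosen after seeing the data, there were 114, 146, 79 and 55 members. Between 1 and 7 cell barcodes were shared by a pair of libraries, and 0 of them belonged to members.

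The label calls these cells Ntrk2 neurofilament mechanoreceptors marked by Ntrk2, Nefh and Cadps2, and the data bore it out for some of them. Cadps2, which encodes a protein of dense-core vesicle release, reached 1 CP10K in 76.2%, 74.1%, 53.0% and 59.0% of members. An Ntrk2 limit of 4 CP10K, chosen after seeing the data, divided the members. Of the 221 members at or above it, 217 had Cadps2 of at least 1 CP10K, with medians of 8.13 CP10K for Ntrk2, 3.27 for Cadps2, 2.23 for Slc17a7, a vesicular glutamate transporter, and 11.7 for Nefh, and 0 of them held a UMI of the cold receptor Trpm8. These cells carried the markers in the label.

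The other 124 members had Ntrk2 between 1 and 4 CP10K, and 21 of them reached the Cadps2 limit. Of these, 97 were Sprr1a-, with medians of 7.00 CP10K for Tac1, the substance P gene, and 4.92 for Pirt, and Trpm8 UMIs in 63 cells. In 42 of the 97, the satellite glia gene Apoe was at 10 CP10K or more (median 48.1, with 12.7 for the glial gene Fabp7). Satellite glia-like cells in these libraries, defined by Fabp7 and Apoe with little Tubb3, had a median Ntrk2 of 7.92 CP10K. The label was therefore not borne out for most members with little Ntrk2, and the whole set is called Ntrk2 neurofilament neurons by its rule. Members with Ntrk2 of at least 4 CP10K made up 71.3%, 71.2%, 47.0% and 48.7%, so both CCI libraries held a larger share of low-Ntrk2 cells than both sham libraries. Neurons whose Ntrk2 fell under 1 CP10K after injury would not be counted as members at all.

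Cells close to the limits were few for Pvalb and many for Nefh and Ntrk2. Ntrk2 values ran from 0.994 CP10K just outside to 1.00 just inside, with 112 cells between 0.5 and 1 and 91 between 1 and 2. Nefh had 4.99 outside and 5.01 inside, with 154 cells from 2.5 to 5 and 152 from 5 to 10. Pvalb had 2.46 outside and 1.37 inside, and Calb1 2.18 outside and 1.80 inside. Among CCI members the nearest Sprr1a values were 1.44 and 2.10 CP10K.

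**Figure D1:**
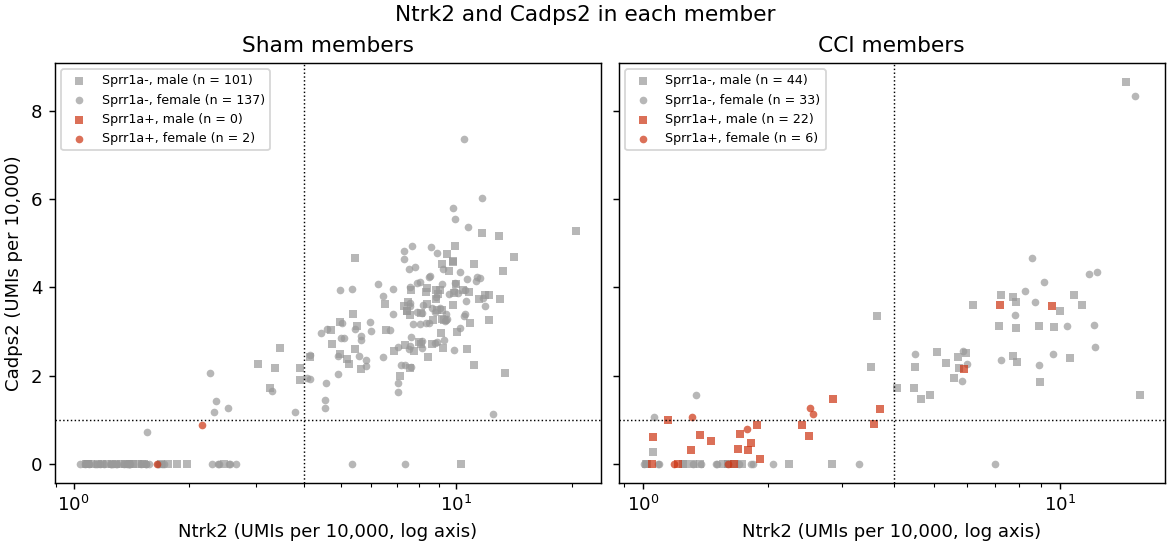
Ntrk2 (horizontal, log axis) against Cadps2 (vertical) in CP10K for each member, sham on the left and CCI on the right, with squares for male and circles for female libraries and Sprr1a+ cells in red. Dotted lines mark Ntrk2 of 4 and Cadps2 of 1, and 27 of the 30 Sprr1a+ members lie to the left of the Ntrk2 line.

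Sprr1a+ cells numbered 0 of 101, 2 of 139, 22 of 66 and 6 of 39 members. In CCI this was 33.3% (95% interval 22.2% to 46.0%) of male and 15.4% (5.86% to 30.5%) of female members, intervals that overlap. A single Sprr1a UMI or more was present in 2.97%, 5.76%, 83.3% and 64.1% of members. The satellite glia-like cells, which should lack the gene, had it in 1.77%, 6.67%, 23.0% and 28.0%, at median depths of 7231, 6547.5, 6428 and 6396.5 UMIs against 97093, 63221, 87981.5 and 53068 in members. With cells thinned to 5000 UMIs, 36.4% (24 of 66, interval 24.9% to 49.1%) of Male-CCI and 17.9% (7 of 39, 7.54% to 33.5%) of Female-CCI members held a Sprr1a UMI, against 21.3% (13 of 61, 11.9% to 33.7%) of Male-CCI and 8 of 50 (7.17% to 29.1%) of Female-CCI satellite glia-like cells. At equal depth the intervals overlapped in both. Among members below 4 CP10K of Ntrk2, a limit chosen after seeing the data, it was 20 of 35 (57.1%, 39.4% to 73.7%) in Male-CCI. In Female-CCI it was 6 of 20 (11.9% to 54.3%). The intervals cover counting error within a library only, and both genes belong to the rule, so these shares are description and no test. In sham 0 of 101 and 3 of 139 members held one.

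The Sprr1a+ cells sat almost entirely among members with little Ntrk2. Below 4 CP10K of Ntrk2 they were 19 of 35 (54.3%, interval 36.6% to 71.2%) in Male-CCI and 6 of 20 (30.0%, 11.9% to 54.3%) in Female-CCI, and in sham 0 of 29 and 2 of 40. At 4 CP10K and above they were 3 of 31 (9.68%) and 0 of 19, and 0 of 72 and 0 of 99 in sham. Their median Ntrk2 was 1.78 CP10K and their median Cadps2 0.652. Cadps2 UMIs were present in 24 and Slc17a7 UMIs in 25 of the 30 Sprr1a+ members of sham and CCI, against 18 and 19 of the 97 Sprr1a- members with little Ntrk2. These presence counts were not matched for depth, with median UMIs of 91593 and 21818.5 in male and female CCI Sprr1a+ members. Members with little Ntrk2, Sprr1a+ cells included, had medians of 45140, 31806.5, 60174 and 34282 UMIs. Among Pvalb neurofilament neurons, chosen with Pvalb of at least 2 CP10K, Sprr1a+ cells were 0 of 98, 1 of 92, 7 of 57 and 8 of 50.

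**Figure D2:**
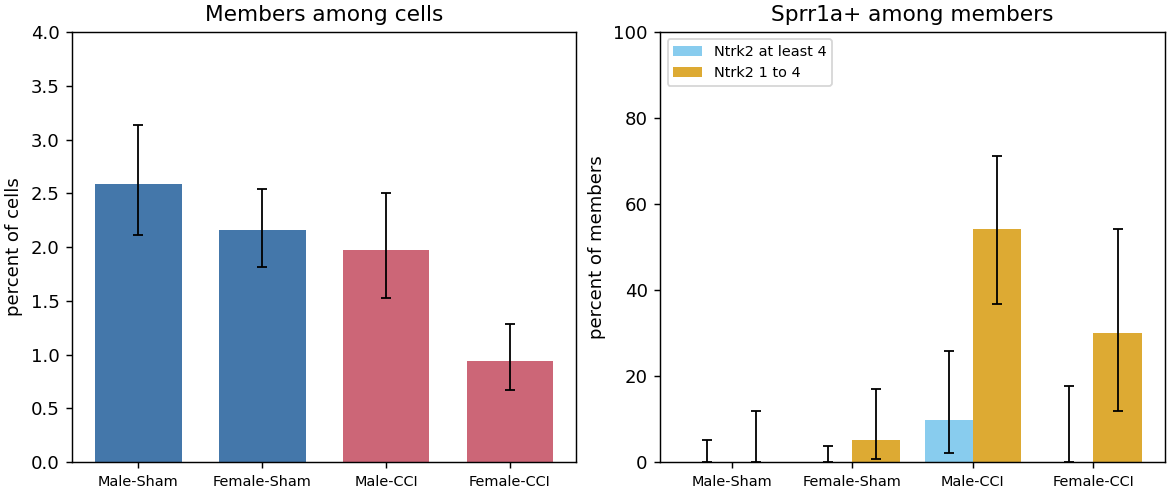
Left, members as a percent of cells in each library. Right, Sprr1a+ cells as a percent of members with Ntrk2 of at least 4 CP10K (light blue) and of 1 to 4 CP10K (orange). Bars start at 0 and lines are exact 95% intervals, and the tallest bar is the 54.3% of low-Ntrk2 members in Male-CCI.

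The first comparison asked how members differed between CCI and sham with no split by Sprr1a, on UMI counts summed over the members of each library and given as counts per 1000000 UMIs of the sum (CPM). Higher in CCI were 15 of 33 tested regeneration-associated genes, and lower were 5 of 17 listed touch neuron markers. The regeneration list holds genes, such as Gadd45a, Kif22 and Sema6a, that the study's paper reports as markers of CCI-induced clusters in these libraries. Counts and medians of that list are therefore description and no independent support. Of 11732 genes tested, 606 passed (5.17%), 416 higher (3.55%) and 190 lower (1.62%) in CCI. Jun, a transcription factor subunit of AP-1 on chromosome 4 from 95049034 to 95052222 (GRCm38), stood at 47.7 and 52.9 CPM in sham and at 227 and 190 CPM in CCI. Both CCI libraries lay above both sham libraries, by a log2 fold change of 2.12 (SE 0.11), with a Benjamini-Hochberg adjusted p of 3.3e-05 in the quasi-likelihood test of edgeR. Gadd45a, a stress-response gene tied to growth arrest, went from 20.5 and 20.9 to 165 and 117 CPM (2.85, SE 0.18, edgeR adjusted p 0.00072). The adhesion protein gene Flrt3 went from 1.58 and 3.52 to 67.2 and 45.4 CPM (4.58, SE 0.34), and Fst, which encodes the activin antagonist follistatin, from 4.49 and 8.22 to 132 and 75.5 CPM (4.14, SE 0.48). In each of these the sham and CCI libraries did not overlap, though named genes were chosen for the same direction in both pairs. Kif22, Stmn4, Sema6a, Nrip1, Gadd45g and Tgfb1 were also among the 10 named genes higher in CCI, by log2 values of 2.22, 2.21, 2.29, 1.97, 1.90 and 1.67.

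Genes lower in CCI included receptors, channels and transcription factors of the members. Gfra2, the neurturin co-receptor on chromosome 14 from 70890120 to 70979838, went from 75.2 and 74.0 CPM in sham to 33.9 and 33.9 CPM in CCI (log2 fold change -1.08, SE 0.11, edgeR adjusted p 0.00084). Kcns1, a modulatory potassium channel subunit, went from 61.2 and 59.7 to 30.5 and 33.0 CPM (-0.88, SE 0.12). Necab2, a neuronal calcium-binding protein gene, went from 160 and 136 to 68.2 and 101 CPM (-0.80, SE 0.18), and Pou4f2, a POU-domain transcription factor gene, from 54.3 and 54.8 to 26.9 and 36.8 CPM (-0.77, SE 0.14). Sham exceeded CCI in both the male and the female pair for all 4, which the choice of named genes required. The other named genes that were lower, Cox7a1, Kank4, Palm, Iqsec2, Trib2 and Etv5, fell by log2 values of 1.11, 0.86, 0.82, 0.80, 0.80 and 0.78. Atf3 and the neuropeptide gene Gal, at 15.1 and 26.2 against 352 and 170 CPM and at 14.0 and 97.8 against 5507 and 1792 CPM, did not pass the test (edgeR adjusted p 0.13 and 0.22).

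Among 33 tested of 36 listed regeneration-associated genes, 15 were higher and 0 lower, with a median log2 fold change of 2.02 against -0.0055 over all genes. These values are description, since part of the list was reported from these same libraries. The count filter can also keep a gene through the CCI libraries alone. The genes that were higher included the small heat shock protein gene Hspb1, from 1075 and 1060 to 2344 and 1879 CPM, and the tubulin gene Tubb2b, from 253 and 285 to 706 and 505 CPM. Of 17 low-threshold mechanoreceptor markers, 0 were higher and 5 lower, namely Cadps2, Necab2, Colq, Gfra2 and Cacna1h. Cadps2 stood at 300 and 283 CPM in sham and 176 and 223 CPM in CCI (-0.51, SE 0.10), and Cacna1h, a T-type calcium channel gene of A-delta touch neurons, at 154 and 141 against 89.0 and 114 CPM. Of 54 potassium channel genes 2 were higher and 4 lower (Kcnip3, Kcns1, Kcnn1 and Kcns3), and of 20 neurofilament and tubulin genes 5 were higher and 0 lower. Of 35 genes of TrkB ligands and signalling, the MAP kinase phosphatase gene Dusp6 was higher and the adaptor gene Frs3 lower, near the 5.17% called over all genes, and DESeq2 called 0. Of 17 genes of the node of Ranvier and its myelin contacts, edgeR and DESeq2 each called 0, with 10 at an unadjusted edgeR p under 0.05. The mechanotransduction channel gene Piezo2 did not pass, at 355 and 337 CPM in sham and 363 and 405 CPM in CCI. Ntrk3, the neurotrophin-3 receptor gene, overlapped between surgeries, at 163 and 168 against 168 and 141 CPM.

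Satellite glia markers moved with the same comparison, with 2 of 9 tested genes higher, among them Ptprz1. The sum of all 10 listed markers was 493, 700, 825 and 1278 CPM, Apoe was the most abundant at 269, 422, 445 and 801 CPM, and no listed marker was at 0. Among members with Apoe below 10 CP10K, a limit chosen after seeing the data, that sum was 142, 174, 234 and 142 CPM, and 647 genes passed, of which 481 were among the 606. All 20 named genes held there. The share of low-Ntrk2 members moved with surgery too. The count of 606 genes became 247 without Sham replicate 1 and 1093 without CCI replicate 2, and 61 among members with Ntrk2 of at least 4 CP10K. Over all alternatives 4 of the 20 named genes (Kif22, Cox7a1, Gfra2 and Palm) passed every time, while Jun reached an edgeR adjusted p of 0.278 and Tgfb1 turned to -0.30 in the Ntrk2-high members.

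Members that also met the Cadps2 limit, a set chosen after seeing the data, came closest to the label, with 77, 103, 35 and 23 cells. Here the sum of satellite glia markers was 212, 239, 160 and 304 CPM, and the male CCI library lay under both sham libraries. CCI differed from sham in 253 of 10959 genes (2.31%), 194 higher (1.77%) and 59 lower (0.538%). Sprr1a+ cells made up 5 of 35 male and 3 of 23 female CCI cells of this set, against 0 of 77 and 0 of 103 in sham. With the Sprr1a+ CCI cells left out, 111 genes passed. Atf3, a stress-induced transcription factor gene, stood at 12.5 and 12.1 CPM in sham and at 102 and 151 CPM in CCI (log2 fold change 3.40, SE 0.20, edgeR adjusted p 3.9e-06). Jun went from 34.9 and 37.2 to 122 and 100 CPM (1.72, SE 0.11), and Sox11, a developmental transcription factor gene, from 29.3 and 39.5 to 90.9 and 75.6 CPM (1.38, SE 0.14). Cacna2d1, the calcium channel subunit that gabapentin binds, went from 60.6 and 79.1 to 134 and 139 CPM (1.04, SE 0.11, edgeR adjusted p 3.1e-06). Both CCI libraries exceeded both sham libraries in these 4 genes, which were chosen for the same direction in both pairs. Gadd45g, Malat1, Cmip, Pcolce2, Tifa and mt-Nd2 were the other named genes higher in CCI, by log2 values of 0.87 to 1.33. The mt-Nd2 value is given as description, since membership limits the summed mitochondrial share.

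Calca, the CGRP gene, was lower in the Cadps2-positive members of CCI and had the largest fall among named genes, which reach 50 CPM in a group, from 198 and 243 CPM in sham to 92.2 and 74.98 CPM in CCI (log2 fold change -1.29, SE 0.11, edgeR adjusted p 1.6e-07). It was joined by 3 further genes of the 11 tested nociceptor and C-fibre markers, Prdm12, Scn10a and Trpv1, each under 20 CPM in every library. Gfra2 went from 80.9 and 83.1 to 46.1 and 40.7 CPM (-0.82, SE 0.12), while Gfra1, the GDNF co-receptor gene, went from 37.4 and 44.0 to 63.2 and 65.4 CPM (0.74, SE 0.13). The groups did not overlap for either co-receptor. Regeneration-associated genes were higher in 19 and lower in 0 of 29 (median log2 fold change 1.38 against -0.00355 over all genes). This is description, since the list includes genes reported from these libraries. Stmn2, a microtubule regulator of growth cones, rose from 2178 and 2184 to 3110 and 3356 CPM (0.65, SE 0.08). Necab2 and Gfra2 were lower among 17 touch neuron markers. Cadps2 is among those 17 and also chose these cells, so the lack of a call for it here carries no meaning. Kcnk16 was the only call among 47 potassium channel genes, near the 2.31% called over all genes, and was higher. The edgeR fit called 0 of 34 TrkB pathway genes, 0 of 25 vesicle release genes and 0 of 5 satellite glia markers, with 4, 9 and 1 at an unadjusted p under 0.05. Piezo2, at 393 and 386 against 467 and 508 CPM, differed by a log2 value of 0.40 (SE 0.08), under the limit of 0.5 needed for a call. The comparison of all CCI with sham cells of this set was run at a single setting.

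The CCI cells at or below the Sprr1a limit asked whether injury genes moved in members low in that marker, of which 11 of 44 male and 14 of 33 female cells held no Sprr1a UMI. Of 11475 genes, 122 passed (1.06%), 89 higher (0.776%) and 33 lower (0.288%). Jun stood at 47.7 and 52.9 CPM in sham and at 150 and 175 CPM in CCI Sprr1a- members (log2 fold change 1.70, SE 0.10, edgeR adjusted p 1.2e-05). Atf3, on chromosome 1 from 191170296 to 191218039, stood at 15.1 and 26.2 against 86.9 and 108 CPM (2.24, SE 0.27, edgeR adjusted p 0.028), and Sox11 at 31.2 and 41.1 against 69.6 and 61.5 CPM (0.89, SE 0.14). No sham value of the 3 reached a CCI value, though named genes were chosen for the same direction in both pairs. Since these cells were picked for low Sprr1a, genes that go with Sprr1a from cell to cell were picked against as well. A pair of nuclear RNAs were higher, Malat1 from 1764 and 2148 to 4871 and 6292 CPM (1.52, SE 0.15) and Meg3 from 1152 and 1212 to 2039 and 2324 CPM (0.90, SE 0.07). Cmip, an adaptor protein gene, went from 59.5 and 60.7 to 112 and 129 CPM (1.01, SE 0.10, edgeR adjusted p 0.00036), and held in all 19 alternatives. Serpina3n, Zbtb20, Gadd45g and Id3 were the other named genes that were higher, by 1.19, 1.14, 1.11 and 1.03.

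Lower in these Sprr1a- members were Mt3, a metallothionein gene, from 1709 and 1860 to 1134 and 1034 CPM (log2 fold change -0.70, SE 0.07, edgeR adjusted p 0.0006), and Gfra2, from 75.2 and 74.0 to 46.8 and 38.0 CPM (-0.78, SE 0.12, edgeR adjusted p 0.0085). Cox7a1, a subunit of cytochrome oxidase, went from 72.0 and 60.4 to 37.4 and 36.4 CPM (-0.83, SE 0.13), and the mitochondrial transcript mt-Nd4l from 593 and 538 to 359 and 328 CPM (-0.70, SE 0.08). Each of the 4 was lower in the male and in the female pair, which the choice of named genes required. Membership limits the summed mitochondrial share, so the mt-Nd4l values are given as description. Hjurp, Palm, Usmg5, Gm2464, Iqsec2 and 2010107E04Rik completed the named genes, falling by 0.79 to 0.58. Of 29 regeneration-associated genes 9 were higher and 0 lower (median 0.844 against -0.0010 over all genes), among them Csf1, the macrophage growth factor gene, from 2.67 and 2.87 to 9.73 and 17.7 CPM. This is description, since the list includes genes reported from these libraries. Gfra2 was the only call among 17 touch neuron markers, Kcnip3 and Kcns1 were lower among 52 potassium channel genes, and edgeR and DESeq2 each called 0 of 34 TrkB pathway genes, 0 of 16 sodium channel genes and 0 of 27 vesicle release genes, with 3, 2 and 14 at an unadjusted edgeR p under 0.05. Penk and Trpm8 were higher, Trpm8 from 10.6 and 11.1 to 22.2 and 24.6 CPM, in a group whose share of low-Ntrk2 cells also differed from sham.

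Satellite glia markers summed to 937 and 1389 CPM in CCI Sprr1a- members against 493 and 700 CPM in sham. Among members with Apoe below 10 CP10K 93 genes passed, of which 68 were among the 122, and 16 of the 20 named genes held. The count was 229 without Sham replicate 1, 305 without Sham replicate 2 and 333 without CCI replicate 1, 34 with Ntrk2 of at least 2 CP10K and 546 with any Sprr1a UMI as the split. Over the alternatives 6 of 20 named genes (Id3, Cmip, Cox7a1, Gfra2, Usmg5 and Mt3) passed every time. Atf3 failed in 6 of 19 (adjusted p up to 0.559), among them without CCI replicate 1 and without CCI replicate 2. The CCI library left in those fits stood at 108 or 86.9 CPM, above the 15.1 and 26.2 CPM of sham. Jun failed in 3, and Zbtb20 turned to -0.16 in members with Cadps2 of at least 1 CP10K.

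Promoters are shown for Sprr1a, which splits the cells, and for Jun and Atf3, which moved in the same cells. Jun and Atf3 proteins pair on AP-1 and cAMP-response-type elements, so a script searched both strands for TGACTCA and for TGACNTCA, where N is any base, in 300 bases from 250 before to 50 after the RefSeq start on GRCm38.p6. Capitals mark the matches. Of 32851 promoters, 1709 (5.20%) held TGACTCA and 2902 (8.83%) held TGACNTCA. The Sprr1a window (chr3:92485832-92486131, minus strand) had 2 matches of the first and 1 of the second, the Jun window (chr4:95052173-95052472, minus strand) had 0 and 1, and the Atf3 window (chr1:191183284-191183583, minus strand) had 0 of both. A single start was searched per gene. The annotated Atf3 gene begins further upstream, at 191218039, and that end was not searched. A match describes the letters only.
Sprr1a: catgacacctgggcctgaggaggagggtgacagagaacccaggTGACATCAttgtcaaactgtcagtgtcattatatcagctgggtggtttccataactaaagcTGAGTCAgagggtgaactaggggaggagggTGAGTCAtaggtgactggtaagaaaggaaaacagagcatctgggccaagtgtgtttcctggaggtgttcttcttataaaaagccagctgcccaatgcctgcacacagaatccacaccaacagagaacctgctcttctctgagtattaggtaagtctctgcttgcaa
Jun: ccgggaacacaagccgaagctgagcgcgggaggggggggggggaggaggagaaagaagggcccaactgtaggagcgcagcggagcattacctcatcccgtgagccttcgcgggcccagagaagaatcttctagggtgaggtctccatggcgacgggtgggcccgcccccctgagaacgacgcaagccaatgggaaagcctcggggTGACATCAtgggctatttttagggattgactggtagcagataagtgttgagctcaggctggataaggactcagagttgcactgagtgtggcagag
Atf3: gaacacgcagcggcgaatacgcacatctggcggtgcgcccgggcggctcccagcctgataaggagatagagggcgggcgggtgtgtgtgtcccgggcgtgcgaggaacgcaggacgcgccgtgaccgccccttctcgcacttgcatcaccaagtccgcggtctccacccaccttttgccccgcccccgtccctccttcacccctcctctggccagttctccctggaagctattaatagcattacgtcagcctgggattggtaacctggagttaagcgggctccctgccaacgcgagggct

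The Sprr1a+ members of Female-CCI numbered 6, below the 10 cells required of a sum, so the planned tests of Sprr1a+ members against sham, and of that change against Pvalb neurofilament neurons, were not run. Their levels are given as description, with exact 95% Poisson intervals for counting error. Gal, which encodes the neuropeptide galanin, stood at 14.0 and 97.8 CPM in sham, 62.3 and 329 CPM in CCI Sprr1a- members, and 16055 (15865 to 16246) and 13990 (13504 to 14488) CPM in male and female Sprr1a+ members. Atf3 was at 866 (822 to 911) and 687 (583 to 804) CPM in Sprr1a+ members. Both genes were thus far above the Sprr1a- members of the same libraries.

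Further regeneration-associated genes, chosen after their values were seen, were also higher in Sprr1a+ than in Sprr1a- members. Sox11 was at 419 and 366 CPM in male and female Sprr1a+ members against 69.6 and 61.5 CPM in Sprr1a- members, Gadd45a at 420 and 361 against 33.4 and 87.2 CPM, and Jun at 377 and 312 against 150 and 175 CPM. Hspb1 was at 3922 and 6165 against 1529 and 1365 CPM, and the growth-cone genes Stmn2 and Gap43 at 10378 and 8043 against 2680 and 2811 CPM and at 1684 and 1396 against 128 and 118 CPM. Nrn1 of the same list was lower, at 58.9 and 98.1 against 337 and 306 CPM. The neuropeptide gene Nts stood at 1700 and 2404 CPM against 9.42 and 47.6 CPM in Sprr1a- members. The neuropeptide gene Npy was at 449 CPM in the male library and 17.8 CPM, or 4 UMIs from 6 cells, in the female library.

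Several channel genes and markers of the members were low in the same cells, of which 19 of 22 male and 6 female ones had Ntrk2 below 4 CP10K. The 18 listed touch neuron markers summed to 1590 and 1619 CPM in Sprr1a+ and to 2853 and 2643 CPM in CCI Sprr1a- members. In sham they summed to 3097 and 2827 CPM in all members and to 1857 and 1506 CPM in those with Ntrk2 below 4 CP10K. How much the share of low-Ntrk2 cells adds to these differences was not tested. Kcna2, a juxtaparanodal potassium channel gene, was at 467 and 407 CPM in sham, 460 and 396 CPM in Sprr1a- members, and 62.4 (51.1 to 75.5) and 31.2 (12.6 to 64.3) CPM in Sprr1a+ members. The sodium channel gene Scn1a was at 24.1 and 26.8 CPM against 113 and 112 CPM in Sprr1a- members. Necab2 was at 7.07 and 8.92 against 99.7 and 112 CPM, and Cadps2 at 77.7 and 89.2 against 227 and 239 CPM. Piezo2 was at 273 and 277 against 410 and 420 CPM, while Ntrk3, at 174 and 112 against 165 and 145 CPM, overlapped. The growth factor receptor gene Ret, at 204 and 219 against 62.9 and 72.2 CPM, and the calcium channel subunit gene Cacna2d1, at 837 and 544 against 146 and 205 CPM, were higher in both. Satellite glia markers summed to 608 and 352 CPM in these cells.

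**Figure D3:**
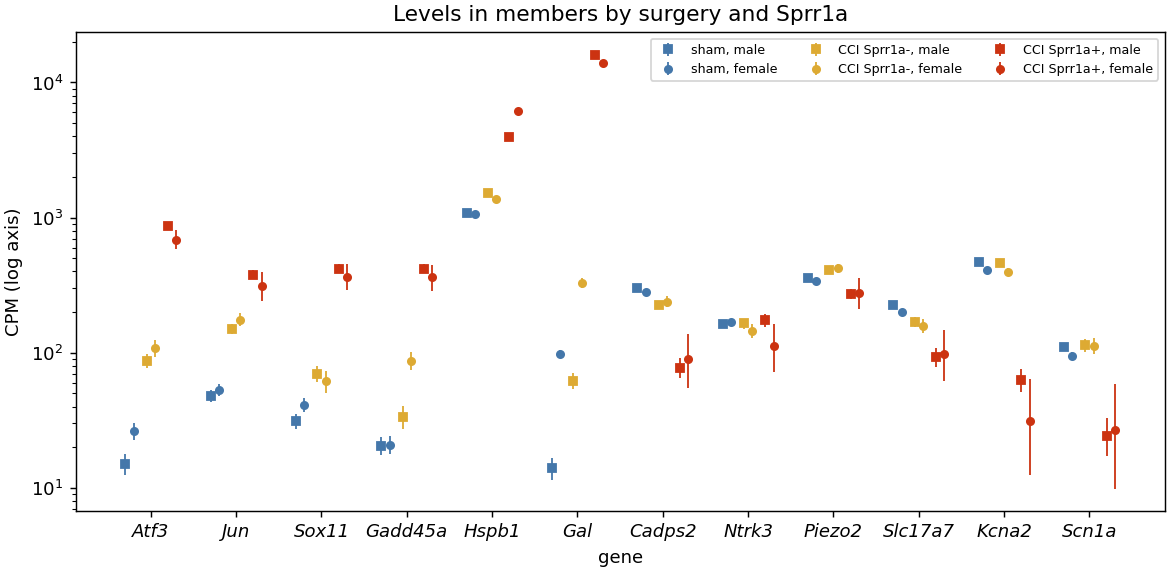
CPM (log axis) of 12 genes in sham, CCI Sprr1a- and CCI Sprr1a+ members, with squares for male and circles for female libraries and lines for exact 95% Poisson intervals. Atf3, Jun, Sox11, Gadd45a, Hspb1 and Gal are highest and Kcna2, Scn1a and Cadps2 lowest in Sprr1a+ members of both sexes.

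With the mitochondrial limit at 20%, chosen after seeing the data, Sprr1a+ members numbered 26 and 11 and could be fitted against 114 and 146 sham members. The split itself selects injured cells, so these values describe that selection. Of 11486 genes 3695 passed (32.2%), 1832 higher (15.9%) and 1863 lower (16.2%). The serotonin transporter gene Slc6a4, at 0 and 1.02 CPM in sham, reached 160 and 131 CPM, and the peptidase inhibitor-like gene Ctla2a, at 0 and 0.382 CPM, reached 565 and 464 CPM. Under the 10% limit Ctla2a was at 598 CPM in male but 22.3 CPM (5 UMIs, 7.24 to 52.1 CPM) in female Sprr1a+ members, so its female value rests on the added cells. Fgf3 and Gm4208 were at 0 and 0.382 CPM in sham and Car3 at 0.232 and 1.40 CPM, while Sdc1, Nnat and Prokr2 were each under 3 CPM there. All of these were at 52.3 to 247 CPM in CCI. Flrt3 went from 1.62 and 3.69 to 181 and 185 CPM and Fst from 4.28 and 8.15 to 334 and 361 CPM, log2 fold changes of 6.37 (SE 0.21) and 6.06 (SE 0.17). Sham and CCI did not overlap in any of these 10 genes, which were chosen for the same direction in both pairs. Ctla2a, Fgf3 and Gm4208 passed the count filter through the CCI cells alone.

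Among the genes lower in that fit, Htr3a, a subunit of the ionotropic serotonin receptor, went from 85.7 and 74.5 to 7.78 and 6.53 CPM (-3.15, SE 0.25), and Kcns1 from 60.9 and 60.6 to 3.89 and 2.18 CPM (-3.83, SE 0.30). The phospholipase gene Plcd4 went from 62.5 and 58.7 to 2.22 and 4.35 CPM and the pentraxin gene Nptx1 from 87.3 and 91.8 to 5.56 and 10.9 CPM. Necab2, Hjurp, Tmem72, Hpca, Tmem35a and Rom1 were lower by log2 values of 3.15 to 3.93. Regeneration-associated genes were higher in 31 and lower in 1 (Nrn1) of 35, a list that includes genes reported from these libraries. In the comparison of CCI Sprr1a- members 29 of the list passed the count filter. Fgf3, at 0 and 0.382 CPM in sham, passed it here only through the CCI cells, so its direction was set by the filter. Potassium channel genes were higher in 6 and lower in 33 of 51 (median -1.47 against -0.0347 over all genes), sodium channel genes and their partners in 1 and 8 of 16, vesicle release genes in 2 and 15 of 27, and transmitter receptors in 1 and 12 of 26. Ribosomal protein genes were higher in 37 and lower in 0 of 83, and neurofilament and tubulin genes in 13 and 1 of 20. Touch neuron markers were higher in 3 (Fam19a1, Ret and Rora) and lower in 10 of 17. Under the 10% limit most CCI Sprr1a+ members had Ntrk2 below 4 CP10K, unlike most sham members. Sham members with Ntrk2 below 4 CP10K had touch marker sums of 1857 and 1506 CPM, against 3097 and 2827 CPM in all sham members. The part played by this difference in composition was not tested. The other settings with enough cells gave 777 genes with any Sprr1a UMI as the split and 3720 without CCI replicate 2.

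The last comparison set Sprr1a- members against Pvalb neurofilament neurons (98, 91, 50 and 42 cells), another neurofilament class of the same libraries. Both classes were chosen by Pvalb, Nefh and Calb1 in these same cells, and the members by Ntrk2 as well, so the values describe how the chosen classes differ. Of 11805 genes 3265 passed (27.7%), 1585 higher (13.4%) and 1680 lower (14.2%) in members. Cadps2, on chromosome 6 from 23262773 to 23839421, was at 300, 288, 227 and 239 CPM in members and 5.09, 8.35, 1.37 and 2.13 CPM in Pvalb neurons, a log2 difference of 5.93 (SE 0.22). Fxyd2, the gamma subunit of the sodium pump, was at 6541 ± 1590 against 239 ± 186 CPM (SD, n = 4 libraries). The classes did not overlap in any library for these genes, which were chosen for the same direction in every library. Tbx3os2, Pdlim1, Lhfpl2, Rgs5, Tmem108, Nrp2 and Baiap2l1 were higher by 6.25, 5.61, 5.47, 4.95, 4.87, 4.76 and 4.74, and Rgs5 failed without Sham replicate 1 and without CCI replicate 1 (adjusted p 0.073 and 0.053).

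Some markers of proprioceptors were nearly absent from members. Runx3, a transcription factor of proprioceptor identity, was at 0, 0.133, 0.304 and 0 CPM in members and 96.5, 81.9, 105 and 96.9 CPM in Pvalb neurons. Of 8 listed proprioceptor markers 6 were lower and 1 (Scn4b) higher. The 8 markers together summed to 722, 659, 539 and 578 CPM in members, with Vsnl1 the most abundant, and to 1863, 1454, 1778 and 1980 CPM in Pvalb neurons. Spp1, the osteopontin gene, was at 0.729, 0.933, 3.95 and 9.63 against 138, 104, 219 and 598 CPM. Nxph1, the neurexophilin gene, had 0 UMIs in all 4 member sums, where 3 UMIs would be 0.364, 0.400, 0.912 and 1.60 CPM, against 81.3, 43.4, 81.4 and 79.4 CPM. Pln, Chodl, Stxbp6, Gprc5b, Sh3bgr, Rasgrp2 and Pappa were the other named genes that were lower, each under 5 CPM in every member sum.

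Touch neuron markers fell on both sides, with 9 of 17 higher and 5 lower. Ntng1, Cadps2, Ldhb, Necab2, Colq, Gfra2, Cacna1h and Piezo2 were among those higher in members, and Shox2, Cntnap2, Fam19a1, Slc17a7 and Ntrk3 lower. Cacna1h was at 134 ± 18.4 against 10.0 ± 3.28 CPM (log2 difference 3.76, SE 0.10) and Necab2 at 128 ± 27.1 against 22.4 ± 3.32 CPM (2.60, SE 0.12). Piezo2 was at 355, 340, 410 and 420 against 160, 167, 186 and 203 CPM (1.16, SE 0.06), while Ntrk3 was at 161 ± 10.9 against 455 ± 21.5 CPM (-1.43, SE 0.06). Piezo2 was thus higher in members in all 4 libraries and Ntrk3 lower in all 4. Of 13 mechanotransduction and acid-sensing channel genes Asic2 was also higher, and Whrn, Asic3, Trpc1, Tmem63c and Asic1 were lower. Slc17a6, a second vesicular glutamate transporter gene, was at 208 ± 13.7 against 53.6 ± 7.33 CPM, opposite in direction to Slc17a7 at 189 ± 30.7 against 389 ± 47.8 CPM.

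In the TrkB pathway 8 of 34 genes were higher and 3 lower in members, near the 27.7% called over all genes. The ligand gene Bdnf was at 62.7, 79.9, 70.2 and 101 against 40.1, 36.5, 51.3 and 82.8 CPM (log2 difference 0.72, SE 0.13), higher in members in each library though the ranges overlapped. Ntf3, the neurotrophin-3 gene, was at 9.93 ± 4.21 against 0.686 ± 0.682 CPM. Spry4, an inhibitor of receptor tyrosine kinase signalling, was at 31.2 ± 1.83 against 0.602 ± 0.442 CPM (5.60, SE 0.24), and the docking protein gene Gab1 at 16.9 ± 1.33 against 4.47 ± 1.19 CPM (1.93, SE 0.16). Shc1, Shc3, Spry2 and Mapk7 were higher too, and Shc2, Pik3cb and Pik3r1 lower. Ngfr, the p75 co-receptor of the Trk family, was at 296 ± 31.6 against 58.5 ± 10.7 CPM.

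Ion channels differed in both directions. Of 55 potassium channel genes 22 were higher and 18 lower, with the modulatory subunit gene Kcns3 at 130 ± 23.1 against 8.63 ± 5.10 CPM, and Kcnk18, the channel TRESK, at 30.9 ± 2.78 against 1.07 ± 0.745 CPM. The channel-interacting protein gene Kcnip2 was at 3.06 ± 1.15 against 93.8 ± 13.3 CPM. Of 17 sodium channel genes 7 were higher and 5 lower. Scn1a was at 108 ± 7.90 against 190 ± 13.8 CPM. Among 28 transmitter receptors 10 were higher and 8 lower, with Htr3a at 84.0 ± 10.4 against 7.17 ± 7.39 CPM. Immediate early genes were lower in 7 and higher in 0 of 12, and 1 of 83 ribosomal protein genes was higher.

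**Figure D4:**
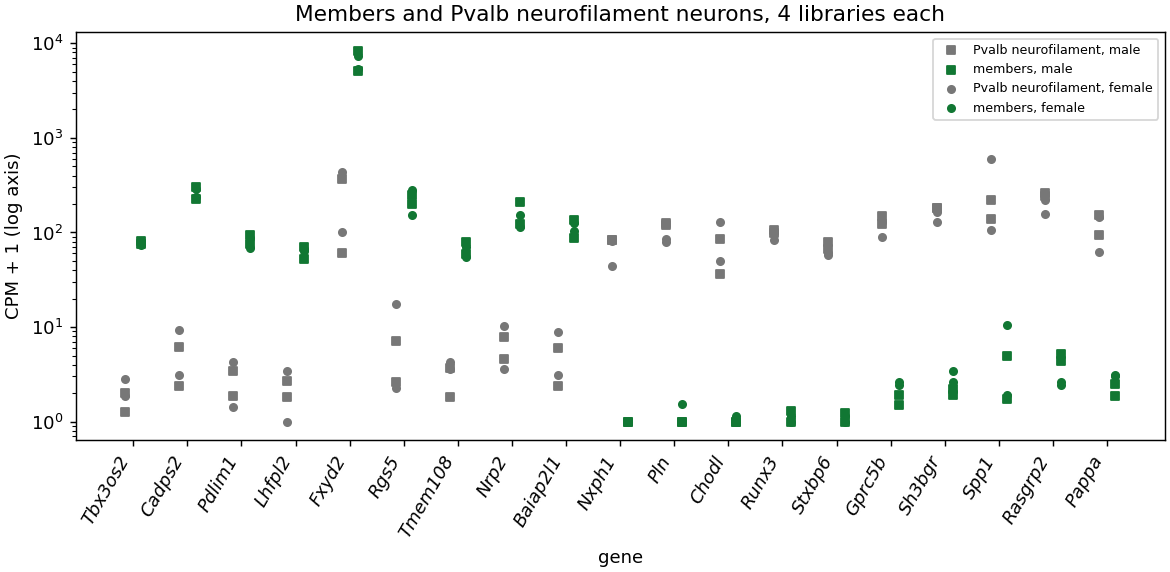
CPM plus 1 (log axis) of 19 of the genes named for members against Pvalb neurofilament neurons, Sprr1a- cells of the 4 libraries in each class, with a point per library. The classes separate for every gene shown, with Cadps2 at 227 to 300 CPM in members and 1.37 to 8.35 CPM in Pvalb neurons. Named genes were chosen for the same direction in all 4 libraries.

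A further comparison, added after seeing the data because too few cells were Sprr1a+, tested whether the CCI change of Sprr1a- cells differed between members and Pvalb neurons. Of 11805 genes 12 passed (0.102%), each with a positive difference, members minus Pvalb neurons. Such a difference can come from either class, and Aqp1, a water channel gene, was at 11.7, 24.7, 10.3 and 21.9 CPM in members and 14.1, 28.7, 1.92 and 5.98 CPM in Pvalb neurons, where the CCI values were the low ones. Jun stood at 47.7, 49.2, 150 and 175 CPM in members and 239, 180, 315 and 272 CPM in Pvalb neurons, so the class with less Jun in sham had the larger rise (log2 difference of changes 1.16, SE 0.17, edgeR adjusted p 0.024). Apoe was at 269, 431, 592 and 890 against 305, 360, 172 and 209 CPM (1.82, SE 0.14). Apoe, Fabp7 and Ednrb, which also passed, are listed satellite glia markers. The satellite glia marker sum was 493, 711, 937 and 1389 CPM in Sprr1a- members and 487, 667, 298 and 366 CPM in Sprr1a- Pvalb neurons. The count was 1 among cells with Apoe below 10 CP10K, and 132, 129, 95 and 28 without Sham replicate 1, Sham replicate 2, CCI replicate 1 and CCI replicate 2.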

How the data were processed

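The deposited counts, UMIs per gene and cell as the authors' Cell Ranger run called them (file headers name version 3.0.2, the labels 2.1.1; reads aligned to mm10), were read for 31053 genes in 4 libraries. Symbols of genes with the same name carry their identifier. Members and gene lists were chosen with earlier results of these data known. Cells were neither merged nor corrected. Scrublet (scanpy 1.11.5) called 2, 121, 0 and 0 doublets, which did not separate cells, so its calls were not used and leaving out the tenth with the highest score served as an alternative. Satellite glia-like cells had Fabp7 of at least 20, Apoe of at least 200 and Tubb3 below 10 CP10K.

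UMIs of the chosen cells were summed per library where each sum held at least 10 cells, and the sums held 2093679 to 8235741 UMIs for all members. Genes were kept by filterByExpr, scaled by TMM and tested with edgeR 4.0.16 in R 4.3.3 (robust quasi-likelihood, Benjamini-Hochberg over all genes tested, library as a term where classes were compared within libraries). A gene passed at an adjusted p below 0.05 and an absolute log2 fold change above 0.5. The procedure was tested on simulated data. The 5 genes of the rule were left out of counts. Mitochondrial transcripts were kept in them, although the rule limits their summed share. Named genes were the 10 higher and 10 lower with the largest fold change among those with at least 50 CPM in a group and the same direction in every pair of libraries; genes of the lists may be named too. Genes given for Sprr1a+ cells were chosen after their values were seen.

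Alternatives were DESeq2 1.42.0, RLE size factors, sex as a replicate block, no filter on low counts, other limits for Ntrk2, Nefh, genes and Sprr1a, Scrublet ranks and leaving out each library. Of the alternative fits run, 37 were planned and 23 were added after seeing the data (Cadps2 of at least 1, Ntrk2 of at least 4 and Apoe below 10 CP10K, at most 20% mitochondrial UMIs, and the difference of the Sprr1a- change with its alternatives). Where leaving out a library left 1 sample in a group, that sample was taken to vary like the other group. Coordinates came from a GENCODE annotation of GRCm38 and promoters from RefSeq. Python 3.11.15 with numpy 2.4.6, pandas 2.3.3 and scipy 1.17.1 was used.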

Additional observations from a re-analysis of the deposited data

Results flagged for a closer look

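The CCI change of Sprr1a- cells differed between Ntrk2 neurofilament neurons and Pvalb neurofilament neurons for 12 genes by edgeR's test of the difference itself, with adjusted p from 0.00018 to 0.040. Values are given for 10 of them. The log2 difference, members minus Pvalb neurons, was 1.16 for Jun and 1.20 for Zbtb20, both genes of transcription factors. It was 1.82 for Apoe, 1.83 for Fabp7 and 3.45 for Ednrb, which are listed satellite glia markers. It was 1.18 for Vim, 1.69 for Gpm6b, 2.25 for Aqp1, 0.88 for Cd9 and 1.55 for Ndrg1. In sham libraries Fabp7 was at 75.3 and 118 CPM in members and 82.6 and 164 CPM in Pvalb neurons, and in CCI at 141 and 232 against 48.3 and 73.8 CPM.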

How the results depend on the processing

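Of the named genes, 19 of 20 for members against Pvalb neurons, 6 of 20 for CCI Sprr1a- members and 4 of 20 for all CCI members passed under every alternative. The 3265 genes of members against Pvalb neurons stayed within 1.5 times under all 11 alternatives (2652 to 3837).

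For CCI Sprr1a- against sham members (122 genes) the count was 63 with DESeq2, 379 with no filter, 367 with sex as a replicate block, 34 with Ntrk2 of at least 2 CP10K, 80 with Nefh of at least 10 CP10K, 54 with Ntrk2 of at least 4 CP10K and 546 with any Sprr1a UMI, and 147 to 333 without one library. For all CCI members (606 genes) it was 320 with DESeq2, 1055 with no filter, 346 with the block, 131 and 61 with Ntrk2 of at least 2 and 4, 187 with Nefh of at least 10, 284 with the Scrublet ranks, 253 with Cadps2 of at least 1, and 247 to 1093 without one library. The block counts share only sex between libraries, whose deviations correlate at 0.0327 across genes.

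For the difference of changes (12 genes) it was 116 with no filter, 1 and 5 with Ntrk2 of at least 2 and 4, 2 with the Scrublet ranks, 6 with Cadps2 of at least 1, 1 with Apoe below 10, and 28 to 132 without one library. Sprr1a+ shares in Male-CCI were 20.0% and 9.68% with Ntrk2 of at least 2 and 4, 11.8% with Nefh of at least 10, 14.3% with Cadps2 of at least 1 and 83.3% with any UMI. In Female-CCI they were 8.70% and 0% with Ntrk2 of at least 2 and 4, 7.14% with Nefh of at least 10, 13.0% with Cadps2 of at least 1 and 64.1% with any UMI. Members were 2.02%, 1.74%, 1.20% and 0.555% of cells with Ntrk2 of at least 2, 1.64%, 1.26%, 1.02% and 0.338% with Nefh of at least 10, and 1.97%, 1.60%, 1.05% and 0.555% with Cadps2 of at least 1. Zbtb20 in Sprr1a- members turned to -0.16 with Cadps2 of at least 1 (adjusted p 0.713, range up to 0.984), and Tgfb1 in all CCI members to -0.30 with Ntrk2 of at least 4 (adjusted p 0.712). The cause was not tested.

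The test of Sprr1a+ members had enough cells with any Sprr1a UMI (777 genes), without CCI replicate 2 (3720) and at 20% mitochondrial UMIs (3695). Its other alternatives, and all of the test of its difference from Pvalb neurons, were not run for want of cells. Counts of 39 members in Female-CCI limit what these data resolve.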

Other observations

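Of the other cell types listed, Schwann cell markers summed to 441, 454, 413 and 468 CPM in members, nearly level between surgeries, with Pmp22 the most abundant. Immune markers summed to 1.46, 1.70, 3.21 and 1.91 CPM. Vascular and fibroblast markers summed to 252, 154, 147 and 259 CPM, with Rgs5 the most abundant.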
